A study of Mus musculus with 8 samples.

Results

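Chemokine ligand genes were compared between whole primary tumours grown from 4T1.13 cells with and without repressed miR-21 activity. The genes were chosen by name, as every row of the count table whose symbol belongs to the Ccl or Cxcl series together with Cx3cl1, Xcl1, Pf4 and Ppbp, and pseudogenes were left out. This gave 41 genes of the 27179 in the table. 4T1.13 is a metastatic mammary carcinoma line of BALB/c mice. The miR-21-KD group held 4 tumours of cells that carry the miArrest lentiviral vector, in which the H1 promoter drives an RNA that sequesters mature miR-21. The vector control (VC) group held 4 tumours of cells with that vector and a scrambled RNA in its place. Cells of both groups also carry the mCherry reporter and hygromycin B resistance of the vector, and each line was a pool of 6 clones, so differences between the pools that do not come from miR-21 cannot be told apart from the knockdown. Female BALB/c mice with an intact immune system, aged 7-8 weeks, received 100000 cells in the mammary fat pad. The labels give day 14 for recovery of the tumours, at the onset of regression of the miR-21-KD tumours, whereas the methods of the study give an earlier day. The comparison asks which chemokine transcripts differed between the groups at that stage.

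Chemokines are small secreted proteins that attract leucocytes through G protein-coupled receptors, and atypical receptors bind them without classical G protein signalling. CC ligands mainly guide monocytes, T cells, eosinophils and dendritic cells, whereas CXC ligands guide neutrophils through CXCR2, activated T cells through CXCR3 and B cells through CXCR5. In mammary tumours, chemokines come from tumour cells, fibroblasts, endothelium and infiltrating leucocytes alike. In whole tumours, fewer cells of a type and less RNA per cell cannot be told apart.

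Values are given as CPM, which are read counts relative to the library size times the TMM factor. Gene counts of the VC libraries totalled 12134849 to 13592695 and those of the miR-21-KD libraries 12550898 to 12783800. A count of 0 allows up to 3 counts, or 0.221 to 0.245 CPM, covering counting error only. A gene was said to rise or fall where the adjusted p of edgeR's quasi-likelihood test, corrected over all 14382 genes tested by the method of Benjamini and Hochberg, was under 0.05. The row of the miR-21 precursor gene held 0 counts in every tumour, so these counts hold no check of the knockdown. VC tumour 4 and miR-21-KD tumour 4 stood apart by their B cell transcripts, with a summed level of B cell markers of 157 and 85.2 CPM against 1.99 to 13.4 CPM in the other tumours, and calls that changed when both of these tumours were left out are given with and without them.

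Of the 41 chemokine ligand genes, 29 passed the filter on low counts, 17 of these rose in miR-21-KD tumours, 2 fell and 10 did not pass the test. In the whole table, 19.6% of the tested genes rose and 19.5% fell. The log2 fold changes of the genes that rose ran from 0.80 for Ccl7 to 3.16 for Ccl17, and 14 of them were above 1. The median log2 fold change of the 29 tested ligands was 1.19, against -0.01 for all genes tested. Levels did not overlap between the groups for 17 ligands, of which 15 were higher and 2 lower in each miR-21-KD tumour than in any VC tumour. Of all genes tested, 16.3% were higher and 18.9% lower without overlap.

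**Figure D1:**
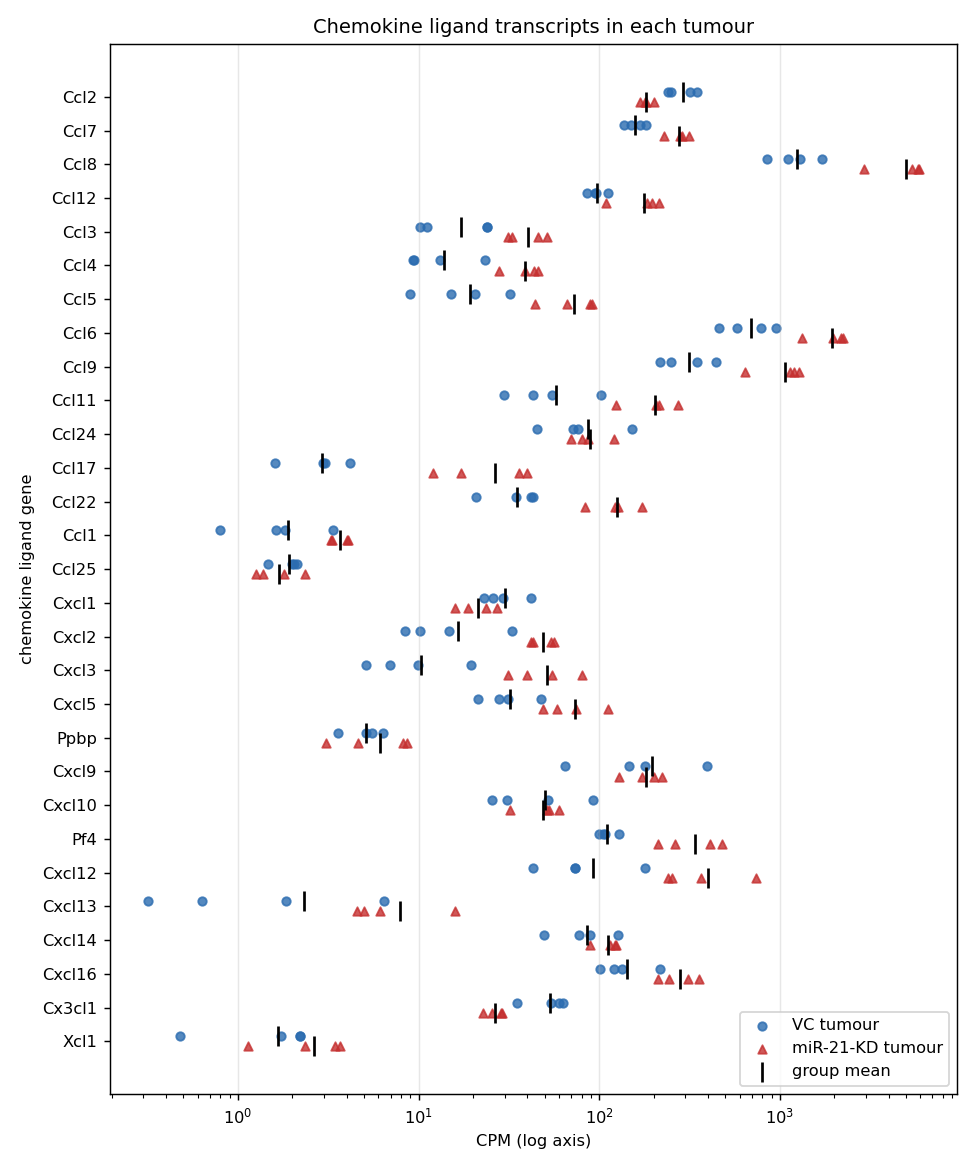
CPM on a log axis of the 29 tested chemokine ligand genes in each of the 4 VC tumours (blue circles) and 4 miR-21-KD tumours (red triangles), with black bars at the group means. For 15 genes every triangle lies to the right of every circle, and for Ccl2 and Cx3cl1 every triangle lies to the left.

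The chemokine ligand genes together took 0.389% ± 0.0870 of the counts in the VC group against 1.07% ± 0.227 after knockdown (SD, n = 4 per group). Their summed level was 3863 ± 889 CPM in VC tumours, against 10865 ± 2405 CPM in miR-21-KD tumours. Ccl8 alone made up 31.9% ± 3.01 of the summed level in VC tumours, against 45.7% ± 4.09 in miR-21-KD tumours. Without Ccl8, the sum was still 2623 ± 564 CPM in VC against 5842 ± 1047 CPM in miR-21-KD tumours. The lowest sum of the miR-21-KD group, 7266 CPM in tumour 2, was above the highest of the VC group, 4816 CPM in tumour 1. Tumour 2 had the lowest sum of each group. VC tumour 2 had the lowest level of its group for 21 of the 29 tested ligands, whereas in the miR-21-KD group tumour 2 was lowest for 12 and highest for 8, and tumour 3 was lowest for 11.

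**Figure D2:**
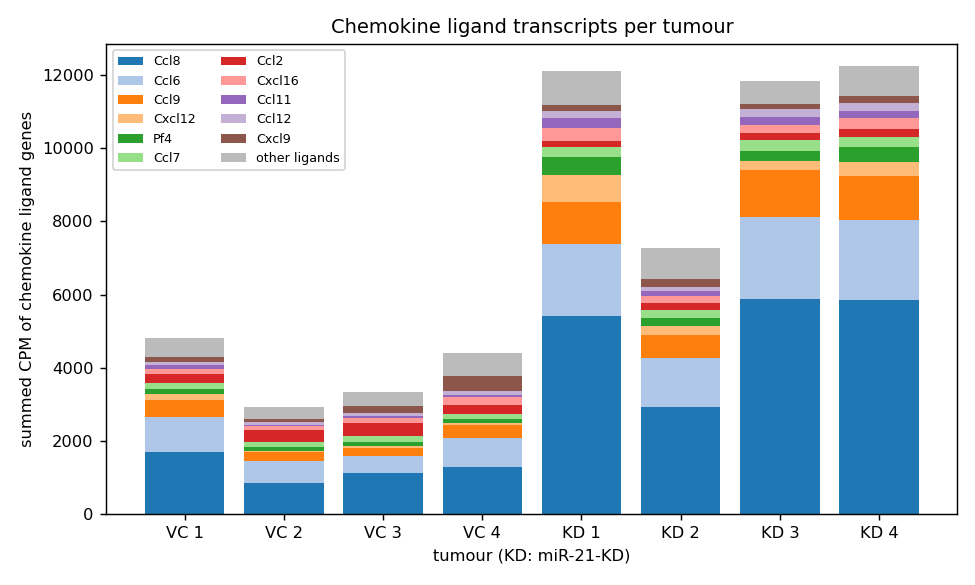
Summed CPM of the chemokine ligand genes in each tumour, stacked by gene (KD stands for miR-21-KD). The VC tumours reach 2909 to 4816 CPM and the miR-21-KD tumours 7266 to 12243 CPM, and Ccl8 is the largest segment in all 8.

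The CCR2 ligands of the monocyte chemoattractant group moved in opposite directions. Ccl2, the main attractant of inflammatory monocytes, was at 249.8, 317, 349 and 242 CPM in VC tumours 1 to 4 and at 169, 179, 181 and 202 CPM in miR-21-KD tumours 1 to 4. Every miR-21-KD tumour was below every VC tumour, and Ccl2 fell by 0.66 on the log2 scale (SE 0.13, edgeR adjusted p = 0.00932). Ccl7, which attracts monocytes through the same receptor and through CCR1, was at 181, 149, 168 and 137 CPM in VC and at 280.1, 229, 312 and 288 CPM in miR-21-KD tumours. The groups did not overlap, and Ccl7 rose by 0.80 (SE 0.13, edgeR adjusted p = 0.00574). Ccl12, the mouse ligand MCP-5, rose by 0.85 (SE 0.20, edgeR adjusted p = 0.0137), from 86.1, 96.1, 95.0 and 112 to 184, 109, 215 and 197 CPM. Here miR-21-KD tumour 2 lay just under VC tumour 4.

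Ccl8, which in mice also signals through CCR8, was the most abundant ligand per length of transcript in both groups. Its level was 1702, 854, 1116 and 1288 CPM in VC tumours, against 5424, 2929, 5889.9 and 5849 CPM in miR-21-KD tumours. Ccl8 rose by 2.02 (SE 0.28, edgeR adjusted p = 0.00558) with no overlap, although miR-21-KD tumour 2 stood well below the other miR-21-KD tumours. Within each tumour, the ratio of Ccl7 to Ccl2 CPM ran from 0.470 to 0.724 in VC and from 1.28 to 1.73 in miR-21-KD tumours. That of Ccl8 to Ccl2 ran from 2.69 to 6.82 and from 16.3 to 32.6.

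On a scale of CPM per kilobase of exon, which allows levels of different genes to be compared, Ccl8 averaged 2427 in VC tumours, against 9830 in miR-21-KD tumours. Ccl6 had rank 2 in both groups, at 387 and 1077. Ccl2 had rank 3 of the 29 in VC tumours, at 254, but rank 8 in miR-21-KD tumours, at 161. Pf4 moved the other way, from rank 6 at 153 to rank 3 at 472. The least abundant tested ligands by this measure were Ccl25 and Ccl1 in both groups.

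All 5 inflammatory CC ligands of the group Ccl3, Ccl4, Ccl5, Ccl6 and Ccl9 rose, and in none of them did the groups overlap. Ccl3 and Ccl4, made by activated macrophages and T cells, rose by 1.22 (SE 0.32, edgeR adjusted p = 0.0194) and 1.497 (SE 0.31, edgeR adjusted p = 0.00998). Ccl3 was at 23.8, 10.1, 11.2 and 23.9 CPM in VC and at 45.7, 51.2, 31.4 and 33.0 CPM in miR-21-KD tumours. Ccl4 was at 13.2, 9.33, 9.46 and 23.3 CPM in VC and at 43.4, 45.7, 27.8 and 39.1 CPM in miR-21-KD tumours. The annotated spans of these genes overlap by 0.755 kb on opposite strands, and since the strand setting of the counting is not given in the sources used here, reads from the shared stretch may not be told apart. Without VC tumour 3 the rise of Ccl3 missed the threshold (edgeR adjusted p = 0.0541).

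Ccl5, or RANTES, which draws T cells and is a hallmark transcript of cytotoxic lymphocytes, was at 15.2, 8.94, 20.6 and 32.3 CPM in VC and at 88.8, 66.1, 44.1 and 91.4 CPM in miR-21-KD tumours. It rose by 1.92 (SE 0.38, edgeR adjusted p = 0.00922). Ccl6 and Ccl9 are rodent ligands of CCR1 made by myeloid cells. Ccl6 was at 954, 580.4, 459 and 785 CPM in VC and at 1970.3, 1326, 2242 and 2193 CPM in miR-21-KD tumours, a rise of 1.48 (SE 0.26, edgeR adjusted p = 0.00694). Ccl9 was at 445, 251, 218 and 349 CPM in VC and at 1143, 642, 1269 and 1206 CPM in miR-21-KD tumours, a rise of 1.75 (SE 0.28, edgeR adjusted p = 0.00629). For both genes the lowest miR-21-KD tumour, tumour 2, was still above every VC tumour.

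The CCR4 ligands Ccl17 and Ccl22, dendritic cell products that draw regulatory and type 2 helper T cells, both rose with no overlap. Ccl17 was at 2.95, 1.60, 4.18 and 3.02 CPM in VC and at 40.0, 17.3, 12.0 and 36.2 CPM in miR-21-KD tumours. This was the highest fold change of the tested ligands, 3.16 (SE 0.45, edgeR adjusted p = 0.00558). Ccl22 was at 41.8, 20.8, 34.4 and 43.1 CPM in VC and at 172, 127, 83.4 and 123 CPM in miR-21-KD tumours, a rise of 1.85 (SE 0.27, edgeR adjusted p = 0.00571). For both genes miR-21-KD tumour 1 was the highest and tumour 3 the lowest of its group. Cx3cl1, or fractalkine, a membrane-bound ligand of CX3CR1 on monocytes, lies between these genes on chromosome 8, 20.791 kb from Ccl22 and 26.952 kb from Ccl17. It was at 35.1, 59.8, 54.4 and 63.1 CPM in VC and at 25.6, 22.9, 29.0 and 28.7 CPM in miR-21-KD tumours. It fell by 1.00 on the log2 scale (SE 0.18, edgeR adjusted p = 0.00739), and the groups did not overlap. Relative to Cx3cl1 within each tumour, Ccl17 stood at 0.0267 to 0.0840 in VC and at 0.415 to 1.56 in miR-21-KD tumours.

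The RefSeq promoters of Ccl17 and Cx3cl1 (GRCm38.p6, 250 bases before to 50 after the start, plus strand) are shown because these neighbours had the largest rise and the largest fall among the ligands. They lie at chr8:94810203-94810502 and chr8:94771930-94772229. The Ccl17 window uses a start inside the annotated span of that gene (chr8:94809380-94812038), while the distance from Cx3cl1 above was measured to the first base of that span. Capitals mark a match to the STAT motif GAS (TTCNNNGAA).
Ccl17: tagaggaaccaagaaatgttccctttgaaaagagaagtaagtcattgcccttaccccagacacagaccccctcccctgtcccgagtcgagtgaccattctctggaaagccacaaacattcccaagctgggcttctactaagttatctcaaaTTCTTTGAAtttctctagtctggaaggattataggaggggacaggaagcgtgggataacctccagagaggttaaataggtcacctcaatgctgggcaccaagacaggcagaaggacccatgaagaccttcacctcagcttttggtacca
Cx3cl1: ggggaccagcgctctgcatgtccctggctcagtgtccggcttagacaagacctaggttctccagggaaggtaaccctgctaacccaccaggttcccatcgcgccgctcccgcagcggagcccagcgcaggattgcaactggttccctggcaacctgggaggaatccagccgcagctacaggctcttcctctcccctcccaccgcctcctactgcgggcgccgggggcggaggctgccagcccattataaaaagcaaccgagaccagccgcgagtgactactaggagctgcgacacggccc
The Ccl17 window holds 1 GAS match, and the Cx3cl1 window holds none of the 4 motifs searched on both strands, which were GAS, the κB motif GGGNNNTTCC, the interferon regulatory factor (IRF) motif GAAANNGAA and the AP-1 motif TGANTCA. A GAS match was present in 2 of the 30 ligand promoters, 1 of 11 of genes that rose and 1 of 9 of genes that did not pass, and in 8.47% of all 27025 promoters of this length.

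**Figure D3:**
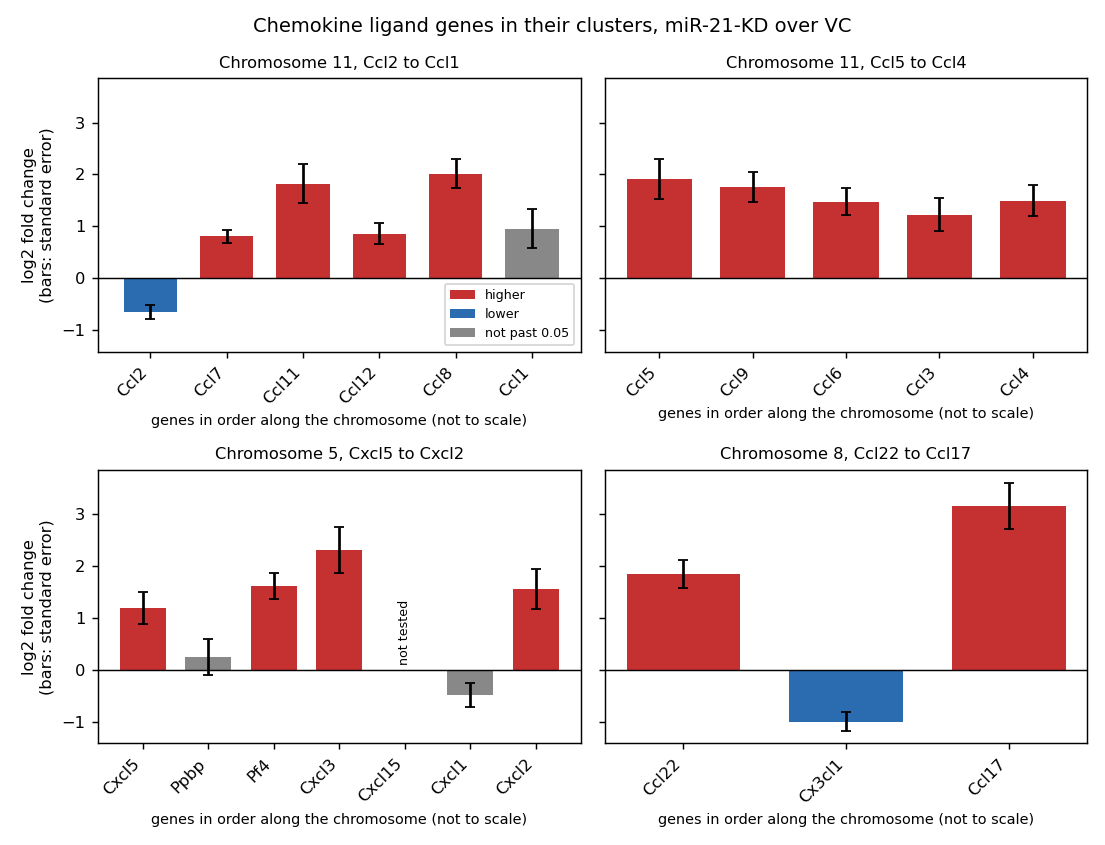
Log2 fold changes (miR-21-KD over VC, bars with standard errors) of chemokine ligand genes in 4 chromosomal clusters, in gene order and not to scale. In the cluster of Ccl2 to Ccl1 a falling gene (Ccl2, -0.66) stands beside rising ones, in the cluster of Ccl5 to Ccl4 all 5 genes rose, and on chromosome 8 Cx3cl1, which fell, lies between Ccl22 (1.85) and Ccl17 (3.16).

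These clusters hold 21 of the 41 ligand genes and lie, in GRCm38.p6, at chr11:82035577-82179812 (Ccl2 to Ccl1), chr11:83525778-83664683 (Ccl5 to Ccl4), chr5:90759298-90905938 (Cxcl5 to Cxcl2) and chr8:94745684-94812038 (Ccl22 to Ccl17). Opposite moves of neighbours also occurred on chromosome 11, where Ccl2 lies 8.259 kb from Ccl7, followed by Ccl11, Ccl12, Ccl8 and Ccl1. Of the ligands of eosinophils, Ccl11, or eotaxin-1, was at 103, 29.7, 43.2 and 55.1 CPM in VC and at 273, 125, 213 and 207 CPM in miR-21-KD tumours. It rose by 1.82 (SE 0.38, edgeR adjusted p = 0.0105) with no overlap, but missed the threshold without both tumours rich in B cell transcripts (log2 fold change 1.80, edgeR adjusted p = 0.0505). Ccl24, or eotaxin-2, which uses the same receptor CCR3, had overlapping levels of 76.0, 71.5, 45.3 and 152 CPM in VC tumours, against 69.9, 120.2, 79.9 and 86.7 CPM in miR-21-KD tumours. Its log2 fold change was 0.05 (SE 0.34, edgeR adjusted p = 0.922), and the sign turned when VC tumours 1, 2 or 3 or miR-21-KD tumour 2 were left out.

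Of the 5 tested neutrophil-attracting ligands of CXCR2, 3 rose and 2 did not pass. Cxcl3 was at 19.6, 5.11, 6.94 and 9.89 CPM in VC and at 80.7, 31.3, 40.1 and 54.8 CPM in miR-21-KD tumours, a rise of 2.31 (SE 0.45, edgeR adjusted p = 0.00855). Cxcl2 was at 32.8, 8.46, 10.2 and 14.7 CPM in VC and at 56.6, 54.4, 42.0 and 42.8 CPM in miR-21-KD tumours, a rise of 1.56 (SE 0.39, edgeR adjusted p = 0.0173). Neither gene had overlapping groups, and VC tumour 1 was the highest VC tumour for both. Cxcl5 was at 47.6, 21.3, 27.9 and 31.5 CPM in VC and at 112, 74.5, 48.8 and 58.1 CPM in miR-21-KD tumours, a rise of 1.19 (SE 0.31, edgeR adjusted p = 0.0187) in which the groups again stood apart. The rises of Cxcl2 and Cxcl5 missed the threshold without VC tumour 3 (edgeR adjusted p = 0.0510 and 0.0566) and without both tumours rich in B cell transcripts (0.0669 and 0.0582, with log2 fold changes of 1.57 and 1.29).

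Cxcl1, 10.777 kb from Cxcl2 and the main neutrophil attractant of mouse tissues, was at 42.0, 23.1, 29.3 and 25.7 CPM in VC and at 16.0, 27.3, 23.8 and 18.7 CPM in miR-21-KD tumours. The groups overlapped, and the log2 fold change of -0.49 (SE 0.23) did not pass (edgeR adjusted p = 0.116). The ratio of Cxcl3 to Cxcl1 CPM was 0.221 to 0.467 in VC tumours, against 1.15 to 5.04 in miR-21-KD tumours. Ppbp, or CXCL7, a platelet product, had a log2 fold change of 0.25 (SE 0.35, edgeR adjusted p = 0.579), with 3.59 to 6.38 CPM in VC tumours, against 3.07 to 8.61 CPM in miR-21-KD tumours. The summed level of neutrophil markers overlapped between the groups, with 274 to 780.4 CPM in VC tumours, against 366 to 646 CPM in miR-21-KD tumours, and none of the 5 tested markers passed. The log2 fold change was positive for 3 of the 5. It was negative for the most abundant, S100a9 (-0.04, edgeR adjusted p = 0.940) and S100a8 (-0.16, adjusted p = 0.773). Among the 5, Cxcr2 (0.89, edgeR adjusted p = 0.0933) passed with replicate numbers blocked (0.95, adjusted p = 0.00744), with DESeq2 (0.91, adjusted p = 0.0463) and without VC tumour 1 (1.36, adjusted p = 0.0127). Ly6g, which defines neutrophils, was below 2 CPM in every tumour.

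The promoters of Cxcl1, Cxcl2, Cxcl3 and Cxcl10 are shown because all 4 hold κB matches, while Cxcl2 and Cxcl3 rose and Cxcl1 and Cxcl10 did not pass. They are RefSeq windows of GRCm38.p6 as above, at chr5:90890995-90891294, chr5:90903649-90903948 and chr5:90785851-90786150 on the plus strand, and for Cxcl10 at chr5:92348840-92349139 on the minus strand. Capitals mark motif matches. The IRF motif GAAANNGAA and the AP-1 motif TGANTCA are matched in the Cxcl10 window, and all other capitals are κB matches, which overlap where the motif matches on both strands.
Cxcl1: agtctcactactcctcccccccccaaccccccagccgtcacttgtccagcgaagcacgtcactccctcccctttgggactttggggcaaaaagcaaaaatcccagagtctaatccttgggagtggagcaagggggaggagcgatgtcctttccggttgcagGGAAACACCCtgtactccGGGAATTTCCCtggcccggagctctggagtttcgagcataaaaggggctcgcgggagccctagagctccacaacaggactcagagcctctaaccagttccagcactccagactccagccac
Cxcl2: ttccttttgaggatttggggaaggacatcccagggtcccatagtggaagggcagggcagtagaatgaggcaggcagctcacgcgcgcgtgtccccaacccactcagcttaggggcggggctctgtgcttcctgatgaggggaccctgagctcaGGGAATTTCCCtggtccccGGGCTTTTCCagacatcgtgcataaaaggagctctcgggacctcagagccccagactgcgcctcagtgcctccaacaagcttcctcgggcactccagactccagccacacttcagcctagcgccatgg
Cxcl3: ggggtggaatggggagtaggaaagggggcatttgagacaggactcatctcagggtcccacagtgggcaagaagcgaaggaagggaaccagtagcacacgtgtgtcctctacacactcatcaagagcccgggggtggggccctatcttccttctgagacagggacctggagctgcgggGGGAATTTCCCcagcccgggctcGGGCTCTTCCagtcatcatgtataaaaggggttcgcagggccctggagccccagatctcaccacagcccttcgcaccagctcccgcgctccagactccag
Cxcl10: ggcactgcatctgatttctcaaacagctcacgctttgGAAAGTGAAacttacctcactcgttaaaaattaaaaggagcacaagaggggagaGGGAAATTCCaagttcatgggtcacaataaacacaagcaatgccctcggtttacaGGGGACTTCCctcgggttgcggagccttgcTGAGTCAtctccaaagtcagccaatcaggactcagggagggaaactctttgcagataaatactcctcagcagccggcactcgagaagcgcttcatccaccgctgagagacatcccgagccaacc
The κB motif was found in 7 of the 30 ligand genes with a promoter in the table, against 5.52% of all promoters. By call, it was in 3 of 11 promoters of genes that rose (Ccl9, Cxcl2 and Cxcl3), in 0 of 1 promoter of genes that fell (Cx3cl1), and in 3 of 9 promoters of genes that did not pass (Ccl1, Cxcl1 and Cxcl10). The IRF motif was found in 6 of the 30, against 8.57% of all promoters, and the AP-1 motif in 5, against 7.93%. The matches describe letters in these windows and not binding.

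The interferon-induced ligands of CXCR3, which draw activated T cells and natural killer (NK) cells, did not pass the test, and their sign turned under several alternatives. Cxcl9 was at 147, 64.5, 179.6 and 395 CPM in VC and at 173, 224, 129 and 201 CPM in miR-21-KD tumours, with a log2 fold change of -0.11 (SE 0.46, edgeR adjusted p = 0.863). Cxcl10 was at 30.8, 25.5, 52.3 and 92.4 CPM in VC and at 52.9, 59.7, 32.3 and 51.7 CPM in miR-21-KD tumours, with a log2 fold change of -0.03 (SE 0.39, edgeR adjusted p = 0.956). For both genes VC tumour 4 was the highest of all 8 tumours. Without it the log2 fold changes were 0.47 and 0.43, still short of the threshold (edgeR adjusted p = 0.283 and 0.250). The sign of both also turned without miR-21-KD tumour 3 (0.02 and 0.12), with limma-voom (0.14 and 0.13) and with replicate numbers blocked (0.11 and 0.11). Cxcl11, another gene of this kind, is annotated as a transcribed pseudogene in the C57BL/6J reference and is not counted among the ligands, and its log2 fold change was -0.38 (edgeR adjusted p = 0.520).

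Of the other CXC ligands, Cxcl12, or SDF-1, a fibroblast and endothelial product that holds CXCR4-bearing cells in tissue, was at 179, 43.2, 73.5 and 73.7 CPM in VC and at 736, 240.2, 252 and 365 CPM in miR-21-KD tumours. It rose by 2.11 (SE 0.51, edgeR adjusted p = 0.0152) with no overlap, and tumour 1 was the highest of both groups. Without both tumours rich in B cell transcripts it missed the threshold (log2 fold change 2.06, edgeR adjusted p = 0.0650). Pf4, or CXCL4, known as a platelet factor and also made by macrophages, was at 128, 99.3, 105 and 108 CPM in VC and at 476, 211, 262 and 413 CPM in miR-21-KD tumours. It rose by 1.63 (SE 0.25, edgeR adjusted p = 0.00571), and the groups did not overlap. Of the 6 platelet markers, Itga2b, the only one tested, had a log2 fold change of 0.47 that did not pass (edgeR adjusted p = 0.0601), with every miR-21-KD tumour above every VC tumour. Gp9 was at 0 in 6 of the 8 tumours and Gp5 stayed at or under 0.221 CPM, and the summed level of the 6, mostly Itga2b, was 5.90 to 9.24 CPM in VC tumours, against 10.4 to 11.2 CPM in miR-21-KD tumours.

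Cxcl16, the transmembrane ligand of CXCR6, was at 120.5, 101, 133 and 216 CPM in VC and at 357, 212, 244 and 309 CPM in miR-21-KD tumours. It rose by 0.97 (SE 0.26, edgeR adjusted p = 0.0196), with miR-21-KD tumour 2 just under VC tumour 4. This rise missed the threshold without VC tumour 2 (edgeR adjusted p = 0.0514), VC tumour 3 (0.0574) or miR-21-KD tumour 4 (0.0532). Cxcl13, which organises B cell follicles through CXCR5, was at 1.84, 0.319, 0.630 and 6.46 CPM in VC and at 5.01, 6.13, 4.54 and 15.9 CPM in miR-21-KD tumours. The highest tumour of each group was tumour 4, the tumour rich in B cell markers, and the part of these cells in the result was not tested. The log2 fold change of 1.77 (SE 0.82) did not pass (edgeR adjusted p = 0.115). With replicate numbers blocked it was 2.16 and passed (edgeR adjusted p = 0.0150), as it did with limma-voom (2.41, adjusted p = 0.0379), without VC tumour 4 (3.05, adjusted p = 0.0157) and without tumour 4 of both groups (2.47, adjusted p = 0.0371). Under other alternatives the log2 fold change of Cxcl13 went down to 1.18. With 1 tumour left out, its highest edgeR adjusted p was 0.310. Cxcl14, a ligand of epithelium and fibroblasts, was at 127, 49.5, 77.6 and 89.3 CPM in VC and at 89.1, 123, 123 and 114 CPM in miR-21-KD tumours. Its log2 fold change of 0.39 (SE 0.25) did not pass (edgeR adjusted p = 0.247), but did without VC tumour 1 (0.64, adjusted p = 0.0480).

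**Figure D4:**
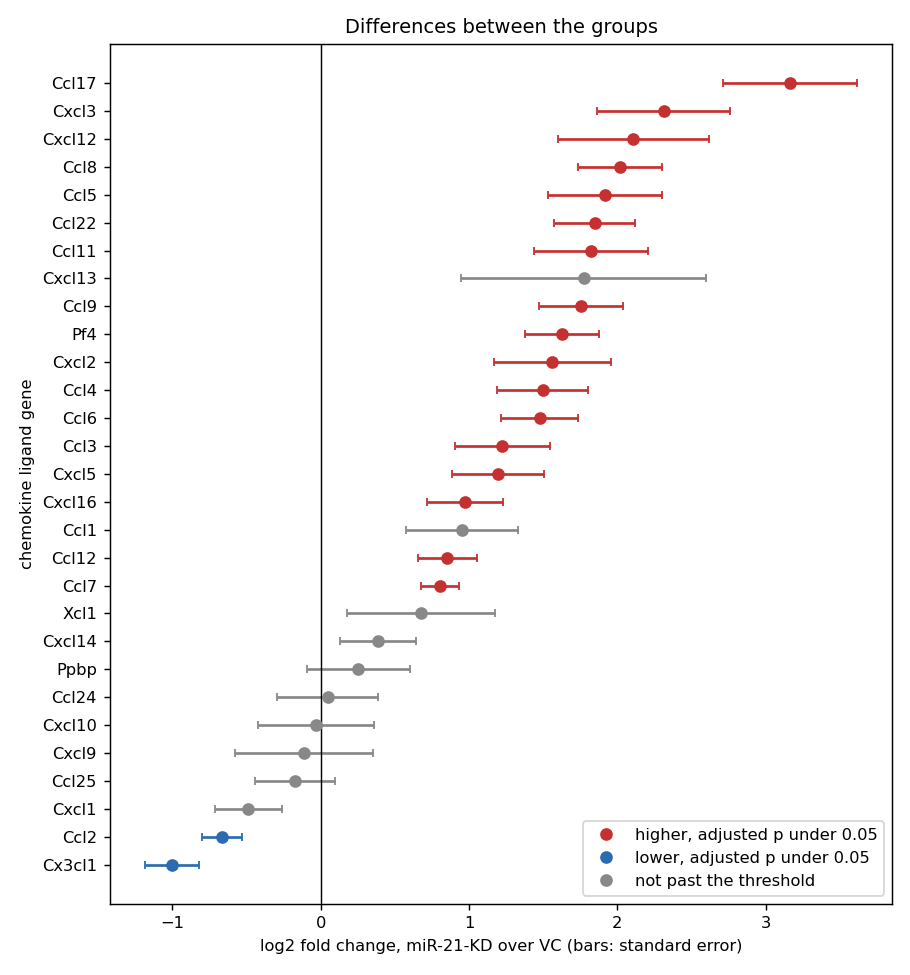
Log2 fold changes (miR-21-KD over VC) of the 29 tested chemokine ligand genes, ordered by size, with standard errors of the edgeR fit from 4 tumours per group. Red points passed an adjusted p of 0.05 as higher (17 genes), blue points as lower (Ccl2 and Cx3cl1), and grey points did not pass. Cxcl13 has the widest error, 0.82.

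Ccl1, Ccl25 and Xcl1 were at a few CPM and did not pass. Ccl1, the T cell product that binds CCR8, was at 1.62, 0.798, 1.81 and 3.35 CPM in VC and at 4.04, 3.30, 4.06 and 3.29 CPM in miR-21-KD tumours. Only VC tumour 4 overlapped the miR-21-KD tumours, and the log2 fold change of 0.95 (SE 0.38) did not pass (edgeR adjusted p = 0.0717), although it did with DESeq2 (0.98, adjusted p = 0.0366), with limma-voom (1.11, adjusted p = 0.0367) and without VC tumour 4 (1.36, edgeR adjusted p = 0.0161) or tumour 4 of both groups (1.42, edgeR adjusted p = 0.0403). Ccl25, the CCR9 ligand of thymus and gut, had a log2 fold change of -0.17 (SE 0.27, edgeR adjusted p = 0.636) between 1.25 and 2.35 CPM. Xcl1, a product of activated CD8+ T cells and NK cells that draws cross-presenting dendritic cells, was at 2.21, 0.479, 1.73 and 2.21 CPM in VC and at 2.34, 3.69, 1.14 and 3.44 CPM in miR-21-KD tumours. Its log2 fold change of 0.68 (SE 0.50) did not pass (edgeR adjusted p = 0.300).

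The 12 ligands that did not pass the filter stayed at or below 2.84 CPM, and 4 of them had 0 counts in every tumour (Ccl19, Ccl21b, Ccl21c and Ccl21d). With no count of Ccl19 and at most 0.235 CPM of Ccl21a, ligands of CCR7 were not counted here beyond a few reads. The copies of Ccl21 and of Ccl27 are nearly identical, and reads shared between copies may have been left uncounted. For Ccl19 this was not tested, and its pseudogene Ccl19-ps1 also held 0 counts in every tumour. Ccl20, which draws CCR6-bearing cells, was at 0.442, 0.160, 0.0788 and 0.736 CPM in VC and at 0, 0, 0 and 0.157 CPM in miR-21-KD tumours. Cxcl15, or lungkine, was at 0.147, 0.0798, 0.473 and 0.654 CPM in VC and at 2.83, 1.02, 2.84 and 0.783 CPM in miR-21-KD tumours, and passed when no filter was applied (log2 fold change 2.41, edgeR adjusted p = 0.0249). Cxcl17 was at 0.157 to 2.02 CPM in miR-21-KD tumours and at 0 to 0.516 CPM in VC tumours. Ccl26, Ccl27a, Ccl27b and Ccl28 stayed below 0.8 CPM throughout.

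The sequence of miR-21 itself is shown with its seed (bases 2 to 8) in capitals, from RefSeq (GRCm38.p6, chr11:86584120-86584141, minus strand), because the ligands were also searched for its target site. The site, ATAAGCT, is the complement of the seed and was sought in the 3′ UTRs of 37 ligands. It is in capitals in these windows.
miR-21a-5p: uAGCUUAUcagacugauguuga
Ccl22: ttggtattATAAGCTatagttat
Ccl3: catctcctATAAGCTgtttgctg
Ccl9: tttttttgATAAGCTgaccattg
Ccl1: gtcatgtgATAAGCTatgttatg
Cxcl9: ctagaaacATAAGCTtacatgga
Ccl20: tgtcaacaATAAGCTattgtaaa
These 6 ligands held the site, against 6.39% of 20690 mouse 3′ UTRs. Of them, Ccl22, Ccl3 and Ccl9 rose, Ccl1 and Cxcl9 did not pass and Ccl20 was not tested. No site of these letters was found in the other 14 ligands that rose or in Ccl2 and Cx3cl1, which fell. In whole tumours the transcripts come from cells with and without the vector, so these matches were read as sequence only.

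Among the chemokine receptors, 24 were in the table and 22 were tested, of which 12 rose, 0 fell and 10 did not pass. No receptor fell at an unadjusted p under 0.05 by edgeR, while 16 rose at that limit, and DESeq2 called 1 lower (Cx3cr1, log2 fold change -1.58, adjusted p = 0.0423). The count of 12 was 6 without VC tumour 3 and 7 without miR-21-KD tumours 1 or 4, and in these fits the share of all genes called higher fell from 19.6% to 9.90%, 12.9% and 12.13%. It was 9 of 21 tested without both tumours rich in B cell transcripts, where 11.04% of all genes were higher, and 14 once the replicate number was blocked, where 23.0% of all genes were higher. The block added Cxcr2 (0.95, edgeR adjusted p = 0.00744) and Cxcr4 (0.66, edgeR adjusted p = 0.0247). The smallest adjusted p values were those of Ccr7 and Ackr3. Ccr7, carried by migrating dendritic cells and naive T cells, was at 21.4, 9.57, 16.9 and 23.5 CPM in VC and at 68.5, 62.1, 40.7 and 53.0 CPM in miR-21-KD tumours, a rise of 1.65 (SE 0.28, edgeR adjusted p = 0.00656). Its groups stood clear of each other. Counts of its ligands Ccl19 and Ccl21 were near 0, but reads shared between gene copies may have been left uncounted. Ackr3, an atypical receptor that takes up CXCL12, was at 81.1, 56.2, 55.6 and 64.6 CPM in VC and at 114, 105, 143 and 105 CPM in miR-21-KD tumours. It had no overlap and rose by 0.86 (SE 0.15, edgeR adjusted p = 0.00700).

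For other ligand and receptor pairs, Cxcr6, the receptor of CXCL16 on T cells, rose by 1.72 (SE 0.46, edgeR adjusted p = 0.0205), and missed the threshold without VC tumour 3 (0.0612), miR-21-KD tumour 1 (0.0520) or miR-21-KD tumour 4 (0.0513). Ccr1 and Ccr2 rose by 0.76 (SE 0.17, edgeR adjusted p = 0.0123) and 0.78 (SE 0.19, edgeR adjusted p = 0.0159). Ccr2 rose while its ligand Ccl2 fell, and it missed the threshold without VC tumour 3 (0.0515). The eotaxin receptor Ccr3 rose by 1.53 (SE 0.42, edgeR adjusted p = 0.0236), and passed in 3 of 8 fits with 1 tumour left out. Ccr4, Ccr8 and Cxcr3 rose as well, by 0.98 (adjusted p = 0.0423), 1.15 (adjusted p = 0.0324) and 1.11 (adjusted p = 0.0364) by edgeR, and passed in 2, 1 and 2 of those 8 fits. The atypical receptors Ackr1 and Ccrl2 rose by 1.68 (adjusted p = 0.0163) and 1.05 (adjusted p = 0.0128) by edgeR. Without both tumours rich in B cell transcripts, Ackr1 (1.56, edgeR adjusted p = 0.0754), Ccr3 (1.51, adjusted p = 0.0825) and Ccr4 (0.99, adjusted p = 0.125) missed the threshold. Without VC tumour 4 alone, Ccr6 (1.35, edgeR adjusted p = 0.0487), Ackr4 (1.4998, adjusted p = 0.0288), Xcr1 (1.24, adjusted p = 0.0335) and Cxcr4 (0.78, adjusted p = 0.0450) passed it. Cx3cr1, the receptor of Cx3cl1, was at 5.09, 23.4, 5.60 and 38.0 CPM in VC and at 10.9, 3.22, 2.92 and 6.65 CPM in miR-21-KD tumours, and its log2 fold change of -1.60 (SE 0.72) did not pass (edgeR adjusted p = 0.104). Under the alternatives this log2 fold change ran from -2.07 to -0.94.

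Markers of several cell types differed between the groups, and their part in the ligand results was not tested. Their counts are to be read beside the 19.6% of all genes that rose. Of 8 macrophage and monocyte markers 7 rose, and their summed level was 2526 to 3798 CPM in VC tumours, against 5153 to 8020 CPM in miR-21-KD tumours. The 2 most abundant were Mrc1 (log2 fold change 1.24, edgeR adjusted p = 0.00928) and C1qa (1.13, adjusted p = 0.0162). The marker that did not pass was Ly6c2 (0.40, edgeR adjusted p = 0.505). Of 7 T cell markers 6 rose, with sums of 34.1 to 123 CPM and 113 to 233 CPM. Of 6 dendritic cell markers 2 rose, with sums of 48.9 to 159 CPM and 169 to 314 CPM. Of 5 fibroblast markers 3 rose, with sums of 1125 to 2529 CPM and 3671 to 7833 CPM. Col1a1, which carried most of that sum, Dcn and Lum rose, whereas Pdgfra (log2 fold change -0.36) and Pdgfrb (0.67) did not pass. Like most of the ligands, the T cell, dendritic cell and fibroblast sums were lowest in VC tumour 2 among the VC tumours. Those of macrophages and monocytes, neutrophils and endothelium were lowest in VC tumour 3. The eosinophil and mast cell sum and the epithelial sum were lowest in VC tumour 4. Of 5 NK cell markers 1 rose, a share near that of all genes (sums 15.9 to 86.2 and 56.1 to 89.3 CPM), and of 5 tested eosinophil and mast cell markers 2 rose (sums 122 to 213 and 195 to 238 CPM). These 2 were Siglecf (log2 fold change 1.96, edgeR adjusted p = 0.0229) and Kit (0.86, adjusted p = 0.0300). Cpa3 (-0.12), Mcpt4 (0.0033) and Prg2 (0.62) did not pass.

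Endothelial markers had sums of 315 to 569 CPM in VC tumours, against 479 to 687 CPM in miR-21-KD tumours, with 1 of 4 higher, and lymphatic markers of 60.9 to 157 and 154 to 277 CPM, with 1 of 2 tested higher and Prox1, which defines that lineage, under 0.5 CPM in every tumour. None of 4 tested B cell markers passed. Of 5 epithelial markers 3 rose, which were Krt14 (log2 fold change 3.08, edgeR adjusted p = 0.0110), Epcam (1.93, adjusted p = 0.0182) and Cdh1 (1.52, adjusted p = 0.0185), and 1 fell, which was Krt18 (-1.15, adjusted p = 0.0374). The epithelial sum was 1274 to 2190 CPM in VC tumours, against 698 to 1484 CPM in miR-21-KD tumours. The keratins Krt18 and Krt8, of simple epithelium, made up most of that sum in VC tumours, and both were lowest in miR-21-KD tumour 1.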

How the data were processed

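RNA sequencing of 8 whole tumours (4 VC, 4 miR-21-KD) was analysed. The table that the authors deposited holds raw read counts by Entrez gene, not normalized, with 1 column per tumour. The submitters' processing notes name Subread, featureCounts, edgeR, limma and the mm10 build, but versions and the strand setting are not given in the sources used here. Symbols and positions came from RefSeq GRCm38.p6 (25275 of 27179 identifiers matched) and exon lengths from GENCODE for the same build. Counts were tested with edgeR 4.0.16 in R 4.3.3 (filterByExpr, minimum count 10 and minimum total 15, leaving 14382 genes, TMM, robust quasi-likelihood fit, Benjamini-Hochberg adjustment over all genes tested, threshold 0.05). Tumours of a group are the study's biological replicates, and no pair of them agreed within sampling noise (chi-square per degree of freedom 10.3 to 57.8). After group means were removed, tumours of the same number correlated at 0.272, 0.421, 0.175 and 0.376, so the shared number in the labels was tried as a block. Other combinations averaged -0.105. Removing group means largely fixes that average from the correlations of the same numbers, so it is no separate contrast.

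The alternatives were DESeq2 1.42.0, scaling by library size alone or by the upper quartile, no filter, a minimum of 10 counts in each tumour, limma-voom (limma 3.58.1), the block, a test for changes above 1.5-fold, each tumour left out in turn, and, chosen after the data were seen, both tumours rich in B cell transcripts left out. Values per tumour are given for every ligand past the threshold, for the most abundant ligand of each role that did not pass and those whose call or direction changed when 1 tumour was left out. The receptors named are the 3 of smallest adjusted p and those that passed, with values per tumour for some of them. The result of 1 receptor under this rule is not reported here. Ligands, receptors, marker lists and motifs were chosen with earlier results of these data known. Promoters, target sites and miR-21 were read from RefSeq and GENCODE sequences, and 11 ligands had no promoter in the table used (Ccl2, Ccl4, Ccl5, Ccl7, Ccl11, Ccl21c, Ccl24, Ccl26, Cxcl5, Cxcl16 and Cxcl17).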

Additional observations from a re-analysis of the deposited data

Results flagged for a closer look

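The level of Ccl8 in miR-21-KD tumour 2, 2929 CPM, stood far below the other tumours of its group, of which the nearest was at 5424 CPM. The level of Cxcl13 in miR-21-KD tumour 4, 15.9 CPM, stood far above the others, of which the nearest was at 6.13 CPM. These were 2 of the 58 groups of 4 tumours examined (29 ligands in both groups), and chance alone would mark about 1 in 20.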

How the results depend on the processing

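Of the 29 tested ligands, 8 rose under all 17 alternatives in edgeR, DESeq2 and limma-voom (Ccl5, Ccl6, Ccl8, Ccl9, Ccl17, Ccl22, Cxcl3 and Pf4). The test for a change above 1.5-fold left 8 ligands higher and 0 lower, and 1 receptor higher, beside 2.32% of all genes higher and 1.45% lower, where it asks for a larger change. With each tumour left out, 13 to 20 ligands were higher and 2 to 2 lower, and 6 to 15 receptors were higher and 0 to 0 lower, with receptors at 6 without VC tumour 3 and 7 without miR-21-KD tumours 1 or 4. DESeq2 called 1 receptor lower, and the cause was not tested. Without VC tumour 3 the share of all genes called higher was 9.90%. Blocking by the replicate number gave 18 ligands higher and 2 lower, since Cxcl13 passed, beside 23.0% of all genes higher and 22.1% lower, and it changed no other call among the ligands. Signs of log2 fold changes turned, all short of the threshold, for Ccl24 (-0.0046, -0.04 and -0.17 without VC tumours 1, 2 and 3, and -0.14 without miR-21-KD tumour 2), for Ccl25 (0.0078 without both B cell-rich tumours), for Cxcl10 (0.0092 with upper-quartile scaling, 0.017 under the minimum of 10 counts per tumour, 0.13 with limma-voom, 0.11 with the block, 0.43 without VC tumour 4, 0.12 without miR-21-KD tumour 3, 0.42 without both), for Cxcl9 (0.14, 0.11, 0.47, 0.02 and 0.43 under limma-voom, the block, and without VC tumour 4, miR-21-KD tumour 3 or both) and for Cxcr5 (-0.19, -0.13 and -0.08 without VC tumours 1, 2 and 3, and -0.21 without miR-21-KD tumour 4). With each tumour left out, these log2 fold changes ran from -0.17 to 0.47 for Ccl24, from -0.26 to 0.43 for Cxcl10, from -0.41 to 0.47 for Cxcl9 and from -0.21 to 0.90 for Cxcr5. The cause was not tested. Of the fits of a single ligand under an alternative, 444 kept direction and side of the threshold, 21 lost the call, 9 gained it and 17 turned sign. The 12 ligands that were not tested did not pass the filter on low counts. With no filter, Cxcl15 passed (log2 fold change 2.41, edgeR adjusted p = 0.0249). For Ccl19 and for the near-identical copies of Ccl21 and Ccl27, depth was not separated from reads shared between copies.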
